A study of Moricandia moricandioides and Moricandia arvensis and Moricandia suffruticosa with 11 samples.

Results

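Transcripts of histones, cyclins and replication licensing factors were examined in mature leaves of 3 *Moricandia* species. The genes were chosen by their descriptions in the deposited table: a row was taken when its short description held the phrase histone superfamily, histone H, histone 2 or minichromosome, or a word starting with cyclin in any case, and did not hold histone deacetylase or methyltransferase. This gave 138 of 33602 Arabidopsis gene models, and 4 further rows were dropped by the exclusion words. The words also catch some genes that are neither cyclins nor histones. Among them are 3 cycling DOF factors, which are transcription factors of photoperiodic flowering, and 6 relatives of the transcription factor TFIIB, and they are described separately at the end.

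Histones H2A, H2B, H3 and H4 form the core particle around which DNA is wound, and H1 binds the linker DNA between particles. Replication-coupled forms such as H3.1 are made mostly while DNA is copied, whereas replacement forms such as H3.3, H2A.Z and H2A.W are built into chromatin of cells in any phase. The minichromosome maintenance proteins MCM2 to MCM7 form the ring that is loaded onto origins before replication (licensing) and then unwinds the DNA as the core of the replicative helicase. Cyclins bind cyclin-dependent kinases (CDKs): D-type cyclins act at entry into the cycle, A-type cyclins in S phase and G2, and B-type cyclins together with the plant B-type CDKs at mitosis. In leaves of Arabidopsis cell division ceases as the leaf matures, except in cells such as the stomatal lineage and the vascular meristem, and many cells go on copying their DNA without dividing (endoreduplication).

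The plants were 4 individuals of *M. arvensis* line MOR1 (plants 9, 12, 13 and 15) and 3 of *M. suffruticosa* (plants 6, 7 and 8), both C3–C4 intermediate species, and 4 of the C3 species *M. moricandioides* (6, 8, 12 and 15). All were wild-type plants grown in a climate chamber with a day of 12 h at 23 °C and nights at 20 °C, and mature leaves were taken about 2 h after the lights came on, before the plants became reproductive. Each species was 1 seed line, so species and photosynthesis type cannot be told apart. Reads counted per plant ranged from 10987959 to 14865167, and values are given as rpm, the reads of a gene scaled by all reads counted in that plant, in the order of the plant numbers above. After genes of low counts were filtered out, 15570 rows remained and were compared by the quasi-likelihood F test of edgeR in 1 fit of all 11 libraries. The words higher and lower are used of transcripts that reached an adjusted p of 0.01 or less over these 15570 rows, SE stands for the standard error of a log2 fold change, and adjusted p values are those of edgeR. *M. arvensis* plants 13 and 15 lay close together (correlation of log2 values 0.993) and so did *M. suffruticosa* plants 6 and 7 (0.994), against at most 0.976 for every other pair within a species. Reads were assigned to coding sequences of another species, and histone copies are nearly identical to each other, so the division of reads among copies of 1 histone is uncertain. In bulk leaf RNA fewer cells of a type and less RNA per cell cannot be told apart.

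Of the 138 genes 102 were detected by 1 read or more, of which 90 were tested and 12 were too low to be tested. In *M. arvensis* 19 of the 90 were higher and 12 lower than in *M. moricandioides*. The background over all tested rows was 18.2% higher and 16.7% lower, or 35.0% in either direction, and 34.4% of the members were called. In *M. suffruticosa* 8 were higher and 4 lower than in *M. moricandioides*, 13.3% of the members against a background of 18.9% (10.1% higher and 8.82% lower). Between the intermediates 6 were higher and 4 lower in *M. arvensis* relative to *M. suffruticosa*, 11.1% against a background of 19.3% (9.40% higher and 9.92% lower). The members as a whole were thus near or below the background in each comparison. Their median log2 fold changes were 0.07, 0.01 and 0.03 in the 3 comparisons, beside 0.02, 0.01 and 0.01 for all tested rows. At a threshold of 0.05 the members had 26 higher and 22 lower (background 25.8% and 24.0%), 14 and 11 (18.1% and 16.1%), and 11 and 11 (17.3% and 17.5%). The comparisons with *M. moricandioides* share its 4 plants. The plants of the species compared did not overlap in rpm for 40.2%, 41.6% and 38.1% of all tested rows in the 3 comparisons. The classes differed from each other, as the plot of log2 fold changes by class shows.

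**Figure D1:**
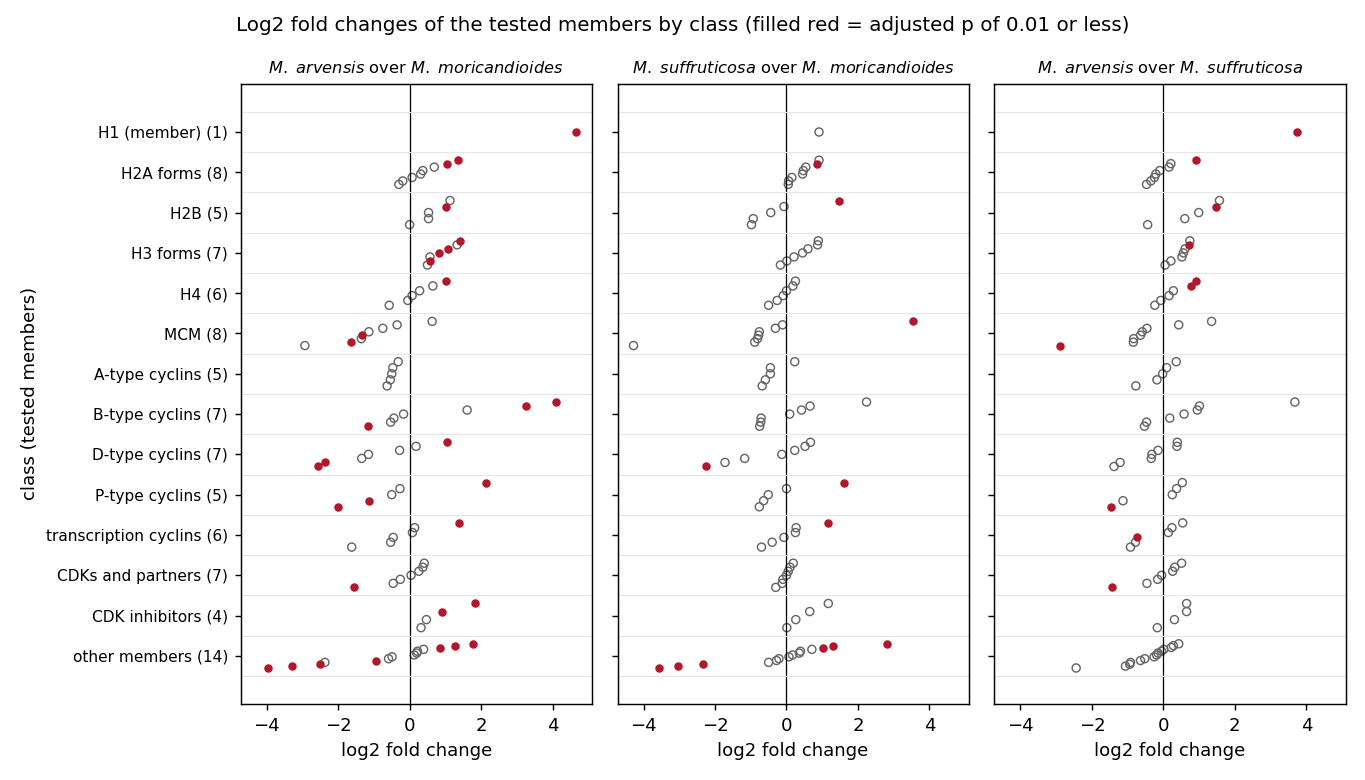
Log2 fold changes (x axis) of the 90 tested genes by class (y axis, number of tested genes in brackets) for *M. arvensis* over *M. moricandioides*, *M. suffruticosa* over *M. moricandioides* and *M. arvensis* over *M. suffruticosa*, each circle being 1 gene and filled red circles those with an adjusted p of 0.01 or less. In *M. arvensis* all 7 tested forms of H3 lie above 0 and MCM2 to MCM7 lie below it.

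A part of the core histone transcripts was higher in *M. arvensis*. Of 42 core histone genes 29 had reads and 26 were tested. In *M. arvensis* 8 of the 26 were higher and 0 lower than in *M. moricandioides* (30.8% higher, against the background of 18.2%; edgeR at an adjusted p of 0.01), with a median log2 fold change of 0.55. At an unadjusted p under 0.05 the split was 15 higher and 1 lower (background 28.8% and 26.8%), and with DESeq2 it was 10 and 0 (background 20.9% and 20.6%). The count fell to 5 higher without *M. moricandioides* plant 6, without *M. arvensis* plant 13 or with the close plants summed. In *M. suffruticosa* 2 of 26 were higher and 0 lower than in *M. moricandioides* (7.69% higher, against the background of 10.1%), with a median of 0.16, against 7 higher and 3 lower at an unadjusted p under 0.05 (background 23.5% and 21.5%), and 5 higher and 2 lower with DESeq2 (background 13.6% and 13.5%). Of these calls 1 was left without *M. moricandioides* plant 6, without *M. suffruticosa* plant 6 or 7, or with the close plants summed. In the direct comparison 5 of 26 were higher and 0 lower in *M. arvensis* relative to *M. suffruticosa* (19.2% higher, against the background of 9.40%), with a median of 0.25, against 9 and 2 at an unadjusted p under 0.05 (background 22.6% and 22.5%), and 7 and 0 with DESeq2 (background 14.0% and 13.8%). This last count rested on single plants, being 1 without *M. suffruticosa* plant 6, 0 without plant 7, 0 with the close plants summed and 3 without *M. arvensis* plant 9, 12 or 15. Summed over the 42 genes, core histones took 1497, 1853, 1616 and 1536 rpm in *M. arvensis* plants and 1152, 1138 and 1081 rpm in *M. suffruticosa*, against 838, 848, 1229 and 1040 rpm in *M. moricandioides*. In rpm the *M. arvensis* plants were above all others, while plant 12 of *M. moricandioides* exceeded every *M. suffruticosa* plant. These sums lack the TMM scaling of the edgeR fit, whose factors were 0.834, 1.04, 1.17 and 1.16 in the *M. arvensis* plants. The factor of *M. moricandioides* plant 12 was 0.906, and the full separation of *M. arvensis* from that plant does not hold under this scaling.

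All 7 tested forms of H3 were above *M. moricandioides* in *M. arvensis* with no overlap between the plants of these species. Of the 7, 4 passed the test (57.1%, beside 18.2% of all tested rows called higher). Non-overlap held for 40.2% of all tested rows in this comparison. HTR4, a gene of the replacement form H3.3, had 415, 635, 531 and 496 rpm in the *M. arvensis* plants, 345, 332 and 310 rpm in *M. suffruticosa*, and 228, 201, 366 and 272 rpm in *M. moricandioides*. It was higher in *M. arvensis* than in *M. moricandioides* (log2 fold change 0.82, SE 0.21, edgeR adjusted p = 0.00682), although plant 12 of *M. moricandioides* exceeded every *M. suffruticosa* plant. HTR8, also H3.3, had 87.7, 124, 109 and 102 rpm in the *M. arvensis* plants, 62.8, 61.5 and 60.5 rpm in *M. suffruticosa* and 63.8, 57.6, 69.3 and 71.4 rpm in *M. moricandioides*. The *M. arvensis* plants were above all others for HTR8, with a log2 fold change of 0.73 over *M. suffruticosa* (SE 0.16, edgeR adjusted p = 0.00398) and 0.56 over *M. moricandioides* (SE 0.14, adjusted p = 0.00622). Calls for HTR4 and HTR8 in *M. arvensis* against *M. moricandioides* were lost in 8 and 7 of the 11 fits that left out 1 library, with edgeR adjusted p up to 0.0244 and 0.0263, and that for HTR8 against *M. suffruticosa* in 4 of them (up to 0.0246).

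Of the replication-coupled H3.1 genes HTR2 and HTR3 were called too. HTR2, which was chosen after its values were seen, as were HTR3, HTA8, HTB7, HTB9 and HTR10 below, had 55.9, 70.3, 51.0 and 47.7 rpm in the *M. arvensis* plants, 49.0, 47.5 and 20.4 rpm in *M. suffruticosa*, and 14.2, 21.3, 16.4 and 26.6 rpm in *M. moricandioides*. This was a log2 fold change of 1.41 for *M. arvensis* over *M. moricandioides* (SE 0.29, edgeR adjusted p = 0.00169), and *M. suffruticosa* plant 8 lay within the range of *M. moricandioides*. HTR3 was higher by 1.08 on the log2 scale in *M. arvensis* (SE 0.24, edgeR adjusted p = 0.0031). HTR13, the member of the class with the most reads, averaged 45.4 ± 3.93 rpm in *M. arvensis* plants and 29.3 ± 5.56 rpm in *M. moricandioides* (SD, n = 4 each), and its log2 fold change of 0.50 did not pass (edgeR adjusted p = 0.0196). Among the other H3 genes HTR6 had 31.8 ± 6.45 rpm in *M. arvensis* against 19.4 ± 3.07 rpm in *M. moricandioides* (SD, n = 4 each; edgeR adjusted p = 0.0303). HTR10, which in Arabidopsis encodes the H3 of male gametes, had 4.93 to 9.09 rpm in *M. arvensis* leaves and 0.724 to 3.23 rpm in *M. moricandioides* leaves (edgeR adjusted p = 0.0166). Centromeric H3 (CENH3), which marks centromeres and is loaded in cycling cells, was at 0.217 to 1.21 rpm over all plants and was not tested.

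Among the H2A forms, 2 of 8 tested genes were higher in *M. arvensis* than in *M. moricandioides* (25.0%, near the background of 18.2%). HTA10, a canonical H2A, had 37.7, 35.0, 37.5 and 40.9 rpm in the *M. arvensis* plants, 16.4, 18.5 and 23.7 rpm in *M. suffruticosa* and 10.0, 15.0, 13.3 and 16.1 rpm in *M. moricandioides*. Its 4 *M. arvensis* plants were narrowly grouped and stood above all others, by 1.36 on the log2 scale over *M. moricandioides* (SE 0.20, edgeR adjusted p = 0.000182) and by 0.91 over *M. suffruticosa* (SE 0.22, adjusted p = 0.00684). The call between the intermediates was lost in 7 of the 11 fits without 1 library. HTA8, an H2A.Z of the form found around transcription start sites, was higher in both intermediates, by 1.06 in *M. arvensis* (SE 0.18, edgeR adjusted p = 0.000424) and by 0.85 in *M. suffruticosa* (SE 0.19, adjusted p = 0.00486). Another H2A.Z gene, HTA9, averaged 40.8 ± 2.66 rpm in *M. arvensis* plants and 46.3 ± 8.18 rpm in *M. moricandioides* (SD, n = 4 each), with a log2 fold change of -0.30 (SE 0.16, edgeR adjusted p = 0.132). HTA7, an H2A.W of silent chromatin, had 31.8 to 71.6 rpm in *M. arvensis*, 52.0 to 60.2 rpm in *M. suffruticosa* and 20.8 to 36.8 rpm in *M. moricandioides*, and passed in neither comparison (edgeR adjusted p = 0.0303 and 0.0172). The abundant canonical HTA2 and the H2A.X gene HTA5, whose product is phosphorylated at DNA breaks, had log2 fold changes equal to 0.31 and 0.07 for *M. arvensis* over *M. moricandioides* (edgeR adjusted p = 0.189 and 0.699).

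The H2B genes split into 2 patterns. HTB5 was higher in both intermediates: it had 55.2, 66.8, 50.5 and 52.2 rpm in the *M. arvensis* plants, 71.8, 69.1 and 82.4 rpm in *M. suffruticosa* and 20.4, 25.8, 29.3 and 26.5 rpm in *M. moricandioides*. The log2 fold changes of HTB5 were 1.03 in *M. arvensis* (SE 0.19, edgeR adjusted p = 0.000823) and 1.47 in *M. suffruticosa* (SE 0.20, adjusted p = 0.000238). HTB1 had the opposite order of the intermediates, with 164, 161, 143 and 126 rpm in the *M. arvensis* plants, 57.4, 49.9 and 51.9 rpm in *M. suffruticosa* and 86.1, 69.8, 134 and 91.6 rpm in *M. moricandioides*. It was higher in *M. arvensis* than in *M. suffruticosa* by 1.47 (SE 0.27, edgeR adjusted p = 0.00158), a call that was lost without *M. suffruticosa* plant 7 (adjusted p = 0.0115) and with the close plants summed (adjusted p = 0.0112). HTB9 and HTB7 had log2 fold changes equal to 0.99 and 1.57 for *M. arvensis* over *M. suffruticosa*, which did not pass (edgeR adjusted p = 0.0187 and 0.0191). The most abundant H2B gene by reads, HTB11, averaged 145 ± 28.3 rpm in *M. arvensis*, 95.6 ± 4.97 rpm in *M. suffruticosa* (SD, n = 3) and 93.8 ± 28.4 rpm in *M. moricandioides* (SD, n = 4 each for the other species).

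Of the H4 genes, whose protein is the same for all copies in Arabidopsis, AT1G07660 was called. It had 66.0, 67.8, 74.1 and 71.8 rpm in the *M. arvensis* plants, 36.3, 42.3 and 41.5 rpm in *M. suffruticosa* and 24.9, 33.9, 31.5 and 36.9 rpm in *M. moricandioides*. The *M. arvensis* plants were above all others, by 1.02 on the log2 scale over *M. moricandioides* (SE 0.15, edgeR adjusted p = 0.000235) and by 0.76 over *M. suffruticosa* (SE 0.17, adjusted p = 0.00471). AT5G59690 was higher in *M. arvensis* than in *M. suffruticosa* by 0.92 (SE 0.21, edgeR adjusted p = 0.00558) and by 0.65 over *M. moricandioides* without passing (adjusted p = 0.0128). The call of AT5G59690 was lost in 5 of the 11 fits without 1 library, and that of AT1G07660 between the intermediates without *M. suffruticosa* plant 6 or 7. The other 4 tested H4 genes passed in none of the comparisons.

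Among the tested members, the largest log2 fold change was that of the linker histone H1.3, which in Arabidopsis is induced by drought and low light. H1.3 had 34.9, 51.4, 42.3 and 33.2 rpm in the *M. arvensis* plants, 3.26, 2.05 and 3.46 rpm in *M. suffruticosa* and 1.67, 1.96, 0.507 and 1.82 rpm in *M. moricandioides*. The lowest *M. arvensis* plant was far above every plant of the other species. On the log2 scale H1.3 was higher in *M. arvensis* by 4.65 over *M. moricandioides* (SE 0.33, edgeR adjusted p = 1.3e-06) and by 3.75 over *M. suffruticosa* (SE 0.35, adjusted p = 2.3e-05), and both calls held whichever library was left out. In *M. suffruticosa* over *M. moricandioides* its log2 fold change was 0.91 (SE 0.36, edgeR adjusted p = 0.0703). A main linker histone, H1.1, is described in other words and lies outside the selection; named after its values were seen, it had 262 to 294 rpm in *M. arvensis*, 88.4 to 154 rpm in *M. suffruticosa* and 76.7 to 165 rpm in *M. moricandioides*. H1.1 too was higher in *M. arvensis*, by 1.31 over *M. moricandioides* (SE 0.28, edgeR adjusted p = 0.00194) and by 1.22 over *M. suffruticosa* (SE 0.30, adjusted p = 0.00864).

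**Figure D2:**
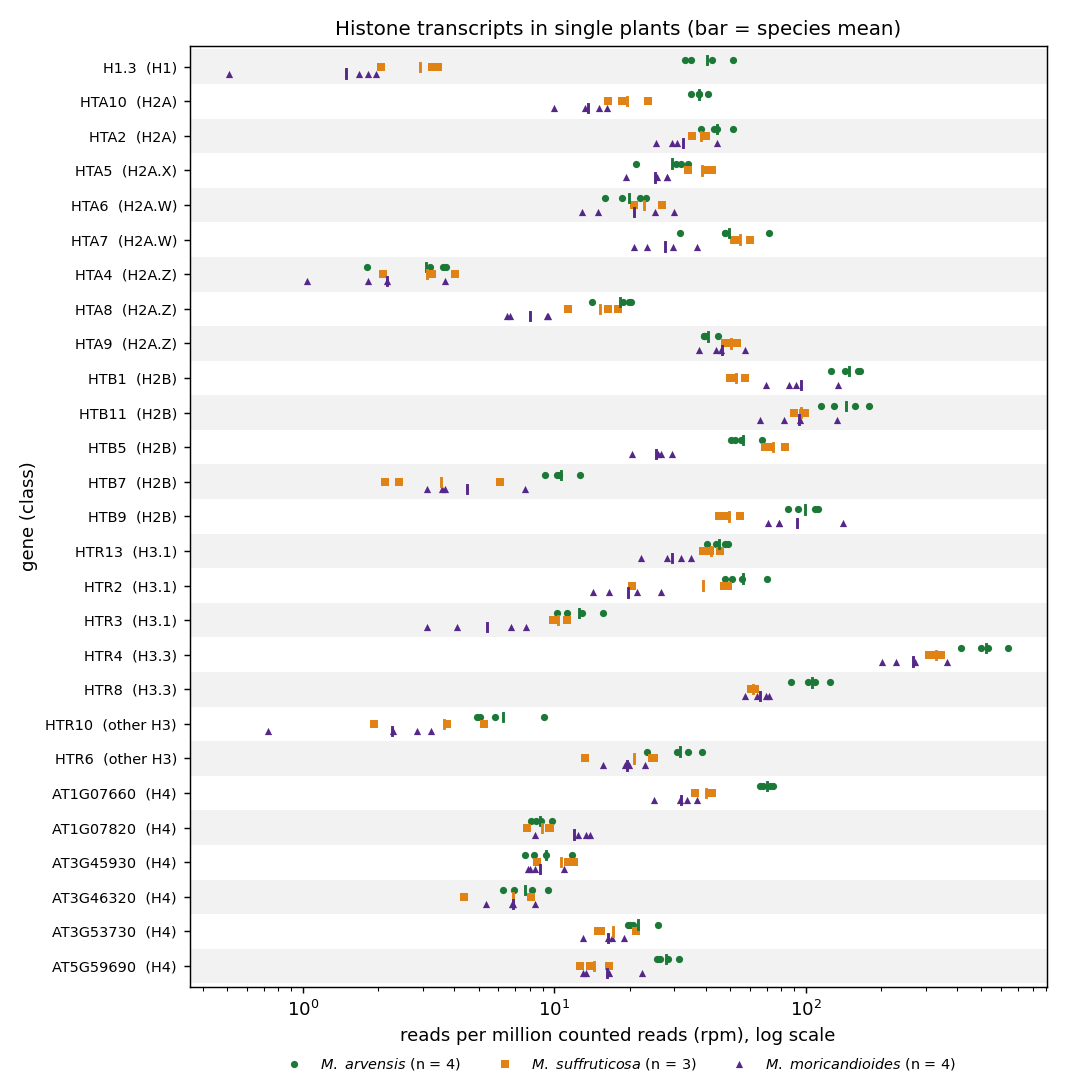
Histone transcripts in single plants on a log scale of rpm (x axis) for the 27 tested histone genes (y axis, class in brackets), with circles for *M. arvensis* (n = 4), squares for *M. suffruticosa* (n = 3) and triangles for *M. moricandioides* (n = 4), and a bar at each species mean. H1.3 lies at 33.2 to 51.4 rpm in *M. arvensis*, against at most 3.46 rpm in *M. suffruticosa* and 1.96 rpm in *M. moricandioides*.

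Histone chaperones carry histones to DNA. Of 10 listed chaperone genes 8 were tested, and 2 were higher and 1 lower in *M. arvensis* relative to *M. moricandioides*, with a median log2 fold change of 0.07. These were 25.0% and 12.5%, near the 18.2% and 16.7% of all tested rows. FAS1, the large subunit of chromatin assembly factor 1 that deposits H3.1 behind the replication fork, had 6.18, 6.87, 6.33 and 6.64 rpm in the *M. arvensis* plants, 5.31, 5.66 and 5.92 rpm in *M. suffruticosa* and 0.903, 2.37, 0.507 and 0.740 rpm in *M. moricandioides*. Every plant of both intermediates was above every plant of *M. moricandioides*, by 2.45 in *M. arvensis* (SE 0.36, edgeR adjusted p = 0.00017) and by 2.28 in *M. suffruticosa* (SE 0.37, adjusted p = 0.000745). MSI1, a further subunit that also acts in Polycomb complexes, was higher in *M. arvensis* by 0.67 over *M. moricandioides* (edgeR adjusted p = 0.00708) and by 0.87 over *M. suffruticosa* (adjusted p = 0.00467). NAP1;1, a chaperone of H2A and H2B, was lower in *M. arvensis* with a log2 fold change of -0.58 (SE 0.14, edgeR adjusted p = 0.00395).

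The helicase subunits MCM2 to MCM7 were at or below the level of *M. moricandioides* on average in both intermediates. All 6 had negative log2 fold changes in both intermediates, with medians of -1.24 in *M. arvensis* and -0.77 in *M. suffruticosa* over *M. moricandioides*. By edgeR 2 were called lower in *M. arvensis* (33.3%) and 0 in *M. suffruticosa*, beside 16.7% and 8.82% of all tested rows. At an unadjusted p under 0.05 these counts were 4 and 2 (background 26.8% and 21.5% lower), and with DESeq2 3 and 0 (20.6% and 13.5% lower). Plants of the species overlapped for each of the 6 genes in both comparisons. MCM5 had 1.96, 2.23, 1.94 and 1.98 rpm in the *M. arvensis* plants, 3.04, 3.61 and 3.91 rpm in *M. suffruticosa* and 2.64, 10.6, 2.10 and 8.48 rpm in *M. moricandioides*. Plants 8 and 15 of *M. moricandioides* stood well above all others, and plants 6 and 12 were near the level of the intermediates. The log2 fold change of MCM5 was -1.65 in *M. arvensis* (SE 0.46, edgeR adjusted p = 0.00999), just inside the threshold.

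MCM6 had the same shape, with 3.52, 2.76, 4.92 and 3.88 rpm in the *M. arvensis* plants, 4.18, 5.37 and 5.46 rpm in *M. suffruticosa* and 5.28, 15.8, 4.27 and 10.3 rpm in *M. moricandioides*. Its log2 fold change in *M. arvensis* was -1.34 (SE 0.36, edgeR adjusted p = 0.00805). The calls of MCM5 and MCM6 were each kept only without *M. moricandioides* plant 6 or 12 and lost in the other 9 fits without 1 library (edgeR adjusted p up to 0.033 and 0.0258), and both were lost with library totals in place of TMM scaling. MCM2, MCM3, MCM4 and MCM7 had log2 fold changes equal to -1.35, -0.75, -1.14 and -0.35 for *M. arvensis* over *M. moricandioides* (edgeR adjusted p = 0.0117, 0.105, 0.0422 and 0.317). Plant 8 was the highest *M. moricandioides* plant for all 6 genes. Over all tested rows plant 8 was the highest of the 4 in 34.0%, and among the 59 tested cell cycle genes outside the selection in 57.6%. Summed over MCM2 to MCM7, the plants had 24.9, 17.4, 26.2 and 24.8 rpm in the *M. arvensis* plants, 23.9, 27.5 and 33.2 rpm in *M. suffruticosa* and 24.7, 73.2, 23.8 and 49.2 rpm in *M. moricandioides*.

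The other MCM genes each had a pattern of their own. MCM9, a relative that acts in DNA repair in animals, had 2.19, 2.67, 3.43 and 2.93 rpm in the *M. arvensis* plants, 23.2, 25.3 and 12.1 rpm in *M. suffruticosa* and 1.81, 1.63, 0.217 and 2.89 rpm in *M. moricandioides*. It was higher in *M. suffruticosa* than in *M. moricandioides* by 3.53 on the log2 scale (SE 0.47, edgeR adjusted p = 0.000213), and *M. arvensis* was lower than *M. suffruticosa* with a log2 fold change of -2.89 (SE 0.46, adjusted p = 0.000636). Both calls of MCM9 held without any single library. MCM10, which joins the helicase when origins fire, had 0.548, 0.446, 0.596 and 0.948 rpm in the *M. arvensis* plants, 0.283, 0.0707 and 0.364 rpm in *M. suffruticosa* and 16.8, 1.06, 0.217 and 0.269 rpm in *M. moricandioides*, where plant 6 stood alone. Its log2 fold changes equal to -2.93 and -4.28 for *M. arvensis* and *M. suffruticosa* over *M. moricandioides* did not pass (edgeR adjusted p = 0.049 and 0.0385) and average that 1 plant with 3 low ones. MCM8 was at 0.172 to 0.816 rpm over all plants and was not tested.

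**Figure D3:**
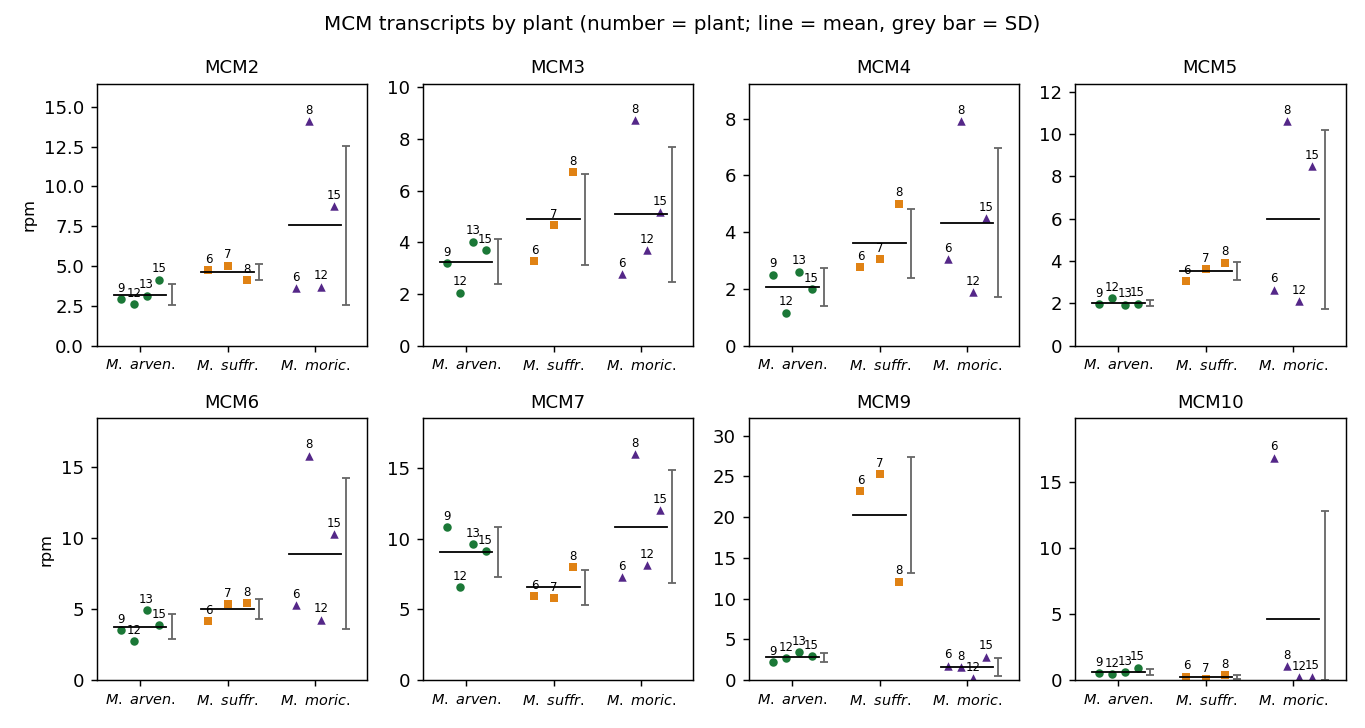
Transcripts of MCM2 to MCM7, MCM9 and MCM10 in rpm (y axes, each from 0) in *M. arvensis*, *M. suffruticosa* and *M. moricandioides* (x axis, left to right), with 1 point per plant labelled by its number, a line at the mean and a grey bar of 1 SD to its right. *M. moricandioides* plants 8 and 15 are highest for MCM5 (10.6 and 8.48 rpm), MCM9 is high in *M. suffruticosa* alone (12.1 to 25.3 rpm), and MCM10 is high in *M. moricandioides* plant 6 (16.8 rpm).

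Of 9 tested licensing genes outside the MCM family 7 had log2 fold changes below 0 in *M. arvensis* over *M. moricandioides*, with a median of -0.63. Of the 9, 1 was called lower (11.1%, beside 16.7% of all tested rows). For *M. suffruticosa* over *M. moricandioides* 6 of 9 were below 0, with a median of -0.37. Within *M. moricandioides* plant 8 was highest for 6 of these 9 genes and plant 12 lowest for 8. For MCM2 to MCM7 plant 8 was highest for 6 of 6 and plant 12 lowest for 3. Over all tested rows plant 8 was highest in 34.0% and plant 12 lowest in 33.5%. ORC4, a subunit of the origin recognition complex, was lower in *M. arvensis* (log2 fold change -1.37, SE 0.37, edgeR adjusted p = 0.00874), and ORC5, of the same complex, was higher in *M. suffruticosa* by 0.78 (SE 0.19, adjusted p = 0.00753). At the fork and in nucleotide supply 4 of 13 tested genes were higher and 2 lower in *M. arvensis*, with a median log2 fold change of 0.35. These were 30.8% and 15.4%, beside 18.2% and 16.7% of all tested rows. PSF2 and PSF1 are 2 subunits of the GINS complex, which binds the MCM ring. PSF2 had 12.0, 12.0, 7.60 and 8.19 rpm in the *M. arvensis* plants, 1.49, 2.19 and 2.46 rpm in *M. suffruticosa* and 0.486, 2.77, 0.869 and 1.88 rpm in *M. moricandioides*, and was higher in *M. arvensis* by 2.66 over *M. moricandioides* (SE 0.45, edgeR adjusted p = 0.000474).

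PSF1 was instead highest in *M. suffruticosa*, with 1.57, 7.93, 7.75 and 7.67 rpm in the *M. arvensis* plants, 21.6, 17.3 and 18.8 rpm in *M. suffruticosa* and 2.15, 3.43, 1.52 and 3.50 rpm in *M. moricandioides* (log2 fold change of *M. suffruticosa* over *M. moricandioides* 2.79, SE 0.39, edgeR adjusted p = 0.000295). RNR2A, a small subunit of ribonucleotide reductase, which makes deoxynucleotides, was lower in *M. arvensis* with a log2 fold change of -1.65 (SE 0.29, edgeR adjusted p = 0.000632). TSO2, another small subunit of that enzyme, had 21.2 to 31.5 rpm in *M. arvensis*, 13.4 to 15.1 rpm in *M. suffruticosa* and 8.75 to 21.2 rpm in *M. moricandioides* and did not pass (edgeR adjusted p = 0.0238 for *M. arvensis* over *M. moricandioides*). The sliding clamp PCNA1 had 7.51, 4.46, 6.78 and 7.41 rpm in the *M. arvensis* plants, 12.8, 15.8 and 14.4 rpm in *M. suffruticosa* and 5.14, 12.9, 5.51 and 12.7 rpm in *M. moricandioides*, where it was high in the same plants 8 and 15 as the MCM genes. Its log2 fold changes over *M. moricandioides* were -0.57 in *M. arvensis* and 0.59 in *M. suffruticosa* (edgeR adjusted p = 0.162 and 0.196). PCNA2 is listed at 0 in every plant.

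D-type cyclins differed in direction from gene to gene. Of 7 tested genes 1 was higher and 2 lower in *M. arvensis*, and 1 was lower in *M. suffruticosa*, than in *M. moricandioides*. The shares were 14.3%, 28.6% and 14.3%, beside 18.2%, 16.7% and 8.82% of all tested rows. CYCD1;1 had 3.68, 3.57, 2.46 and 3.28 rpm in the *M. arvensis* plants, 5.52, 7.07 and 9.56 rpm in *M. suffruticosa* and 14.9, 25.3, 13.5 and 10.49 rpm in *M. moricandioides*. The 3 species were fully apart with *M. suffruticosa* in the middle, where non-overlap of the intermediates held for 38.1% of all tested rows, and the log2 fold change was -2.38 in *M. arvensis* (SE 0.30, edgeR adjusted p = 6.9e-05) and -1.17 in *M. suffruticosa* (SE 0.31, adjusted p = 0.0135). CYCD6;1, which drives an asymmetric division in the Arabidopsis root, had 0.313, 0.802, 0.447 and 0.431 rpm in the *M. arvensis* plants, 0.354, 0.636 and 0.819 rpm in *M. suffruticosa* and 1.39, 5.14, 1.304 and 3.23 rpm in *M. moricandioides*. It was lower in both, with log2 fold changes of -2.57 in *M. arvensis* (SE 0.51, edgeR adjusted p = 0.00136) and -2.25 in *M. suffruticosa* (SE 0.55, adjusted p = 0.00828), the second being lost in 7 of the 11 fits without 1 library.

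CYCD2;1 was higher instead, with 26.4, 30.0, 38.8 and 39.5 rpm in the *M. arvensis* plants, 29.2, 29.4 and 15.7 rpm in *M. suffruticosa* and 12.0, 16.7, 15.1 and 15.0 rpm in *M. moricandioides* (log2 fold change in *M. arvensis* 1.05, SE 0.18, edgeR adjusted p = 0.000543). *M. suffruticosa* plant 8 lay within the range of *M. moricandioides*, and the comparison of these species gave 0.67 (edgeR adjusted p = 0.0197). CYCD3;1, which keeps Arabidopsis leaf cells dividing, averaged 3.28 ± 0.657 rpm in *M. arvensis* (SD, n = 4), 8.34 ± 1.36 rpm in *M. suffruticosa* (SD, n = 3) and 6.85 ± 4.16 rpm in *M. moricandioides* (SD, n = 4). The *M. arvensis* plants were below all others, but the log2 fold changes of -1.38 against *M. suffruticosa* and -1.15 against *M. moricandioides* fell just short of the threshold (edgeR adjusted p = 0.0105 and 0.0131). Non-overlap held for 38.1% and 40.2% of all tested rows in these comparisons. CYCD3;3, CYCD4;2 and CYCD5;1 passed in none of the comparisons (edgeR adjusted p from 0.0117 to 0.672).

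A-type cyclins were low and 0 of the 5 tested genes were called by edgeR in any comparison. At an unadjusted p under 0.05, 2 were lower in *M. arvensis* and 2 in *M. suffruticosa* than in *M. moricandioides* and 1 was lower in *M. arvensis* than in *M. suffruticosa*, beside 26.8%, 21.5% and 22.5% of all tested rows. DESeq2 called 1, 0 and 1 lower in these comparisons, beside 20.6%, 13.5% and 13.8% of all tested rows. CYCA2;3, which holds back endoreduplication in Arabidopsis, had 9.00 to 9.55 rpm in *M. arvensis*, 13.7 to 16.7 rpm in *M. suffruticosa* and 8.91 to 18.1 rpm in *M. moricandioides*. Its log2 fold change of -0.77 in *M. arvensis* over *M. suffruticosa* had a SE of 0.21 and an edgeR adjusted p of 0.0129. CYCA3;2 did not pass but had every plant of both intermediates below every *M. moricandioides* plant, at 4.90 to 7.76 rpm in *M. arvensis*, 6.37 to 7.72 rpm in *M. suffruticosa* and 8.33 to 9.82 rpm in *M. moricandioides* (edgeR adjusted p = 0.0139 and 0.101). Such non-overlap held for 40.2% and 41.6% of all tested rows in these comparisons. The B-type CDKs were at the same low order, with 1.34 to 2.66 rpm of CDKB1;2 in *M. arvensis*, 1.98 to 3.09 rpm in *M. suffruticosa* and 1.25 to 3.59 rpm in *M. moricandioides*. Neither CDKB1;2 nor CDKB2;2 passed (edgeR adjusted p from 0.202 to 0.753).

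Most B-type cyclins were at a few rpm in all plants, with an exception in single *M. arvensis* plants. CYCB1;3 had 84.4, 53.9, 3.50 and 3.19 rpm in the *M. arvensis* plants, 3.40, 4.31 and 1.55 rpm in *M. suffruticosa* and 2.92, 2.53, 0.942 and 2.42 rpm in *M. moricandioides*. Plants 9 and 12 of *M. arvensis* were high, while plants 13 and 15, the close pair, lay near the other species. The log2 fold change of 4.10 over *M. moricandioides* (SE 1.01, edgeR adjusted p = 0.00523) therefore averages unlike plants, and the call was lost in 6 of the 11 fits without 1 library (adjusted p up to 0.0172) and its log2 fold change was 3.04 without *M. arvensis* plant 9. CYCB3;1 was graded in the same order, with 24.5, 10.97, 4.02 and 2.24 rpm in the *M. arvensis* plants, 5.03, 5.80 and 6.01 rpm in *M. suffruticosa* and 1.25, 1.71, 0.507 and 1.08 rpm in *M. moricandioides*. Every plant of both intermediates was above every *M. moricandioides* plant for CYCB3;1, by 3.25 on the log2 scale in *M. arvensis* (SE 0.73, edgeR adjusted p = 0.00299) and by 2.24 in *M. suffruticosa* (SE 0.76, adjusted p = 0.0388). The CYCB3;1 call in *M. arvensis* was lost without *M. moricandioides* plant 6, 12 or 15 (edgeR adjusted p up to 0.0106), and its log2 fold change was 2.14 to 3.60 over the 11 fits without 1 library, the lowest being without *M. arvensis* plant 9.

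CYCB1;1, a common reporter of cells at G2 and mitosis, had 2.97, 2.05, 0.969 and 1.47 rpm in the *M. arvensis* plants, 0.921, 1.27 and 0.728 rpm in *M. suffruticosa* and 0.625, 0.734, 0.652 and 0.336 rpm in *M. moricandioides*. All *M. arvensis* plants lay above those of *M. moricandioides*, as non-overlap held for 40.2% of all tested rows, and the log2 fold change of 1.61 (SE 0.46) did not pass (edgeR adjusted p = 0.0117). CYCB2;5 was called lower in *M. arvensis*, with 6.03, 7.58, 8.57 and 9.57 rpm, against 10.98, 11.9 and 8.65 rpm in *M. suffruticosa* and 20.14, 17.4, 8.04 and 19.9 rpm in *M. moricandioides*. Plant 12 of *M. moricandioides* lay among the *M. arvensis* plants, and the log2 fold change was -1.17 (SE 0.24, edgeR adjusted p = 0.00155). CYCB1;4, CYCB1;5 and CYCB2;1 had log2 fold changes equal to -0.44, -0.17 and -0.53 for *M. arvensis* over *M. moricandioides* (edgeR adjusted p = 0.458, 0.732 and 0.167). The meiotic cyclin SDS had 0.391, 0, 0 and 0.0862 rpm in the *M. arvensis* plants, 1.42, 0.566 and 0.0910 rpm in *M. suffruticosa* and 0.764, 0.734, 0.869 and 0.202 rpm in *M. moricandioides*. Its log2 fold changes over *M. moricandioides* were -2.37 in *M. arvensis* and 0.07 in *M. suffruticosa*. Between the intermediates it was -2.44 for *M. arvensis* over *M. suffruticosa*, and SDS passed in none of the comparisons.

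**Figure D4:**
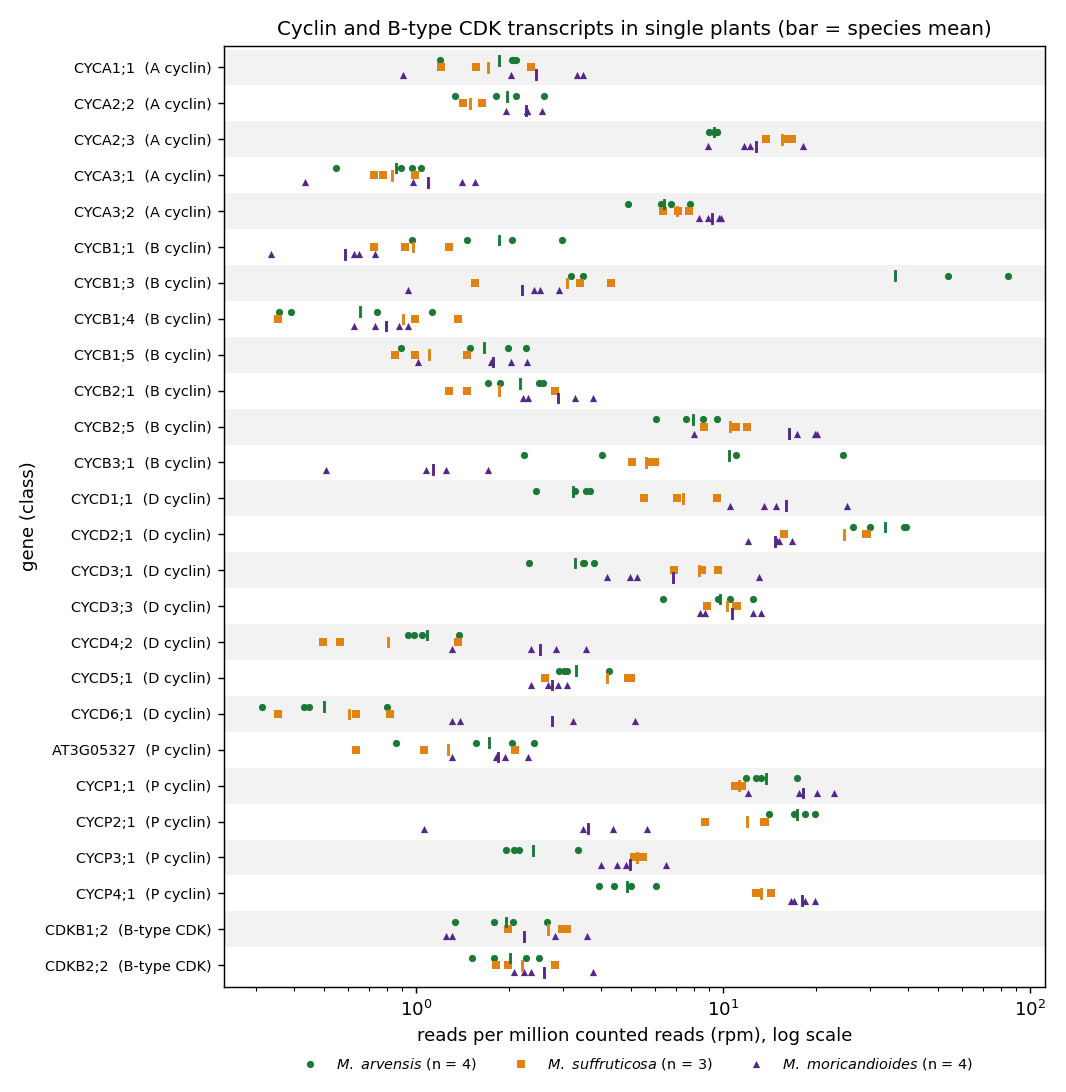
Transcripts of the 26 tested A-, B-, D- and P-type cyclins and B-type CDKs (y axis, class in brackets) in single plants on a log scale of rpm (x axis), with circles for *M. arvensis* (n = 4), squares for *M. suffruticosa* (n = 3) and triangles for *M. moricandioides* (n = 4), and a bar at each species mean. CYCB1;3 spreads from 3.19 to 84.4 rpm within *M. arvensis*, and CYCD1;1 is at 2.46 to 3.68 rpm there against 10.49 to 25.3 rpm in *M. moricandioides*.

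Some genes of mitosis and cytokinesis outside the selection were lower in *M. arvensis*. Of 13 tested genes 4 were lower there than in *M. moricandioides* (30.8%, beside 16.7% of all tested rows), with a median log2 fold change of -0.68. In *M. suffruticosa* 1 was higher and 1 lower (7.69% each, beside 10.1% and 8.82% of all tested rows), with a median of -0.64. MAP65-3, which bundles microtubules of the cell plate, had 2.27, 2.14, 2.38 and 2.24 rpm in the *M. arvensis* plants, 13.0, 11.5 and 4.37 rpm in *M. suffruticosa* and 16.3, 20.5, 6.30 and 20.4 rpm in *M. moricandioides*. It was uniformly low in *M. arvensis* (log2 fold change -2.91 over *M. moricandioides*, SE 0.39, edgeR adjusted p = 0.000103; -2.12 over *M. suffruticosa*, adjusted p = 0.00219). In *M. suffruticosa* the Aurora kinase AUR3, which phosphorylates histone H3, was higher by 2.65 (SE 0.47, edgeR adjusted p = 0.00129), and CDC20.2, an activator of the anaphase promoting complex, was lower with a log2 fold change of -2.25 (SE 0.55, adjusted p = 0.00837). TPX2, a spindle assembly factor, was higher in *M. arvensis* than in *M. suffruticosa* by 1.21 (SE 0.29, edgeR adjusted p = 0.0075).

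Kinases and inhibitors showed a similar mixture. CDKA;1, the main plant CDK, was at 24.8 to 35.6 rpm in *M. arvensis*, 25.8 to 32.4 rpm in *M. suffruticosa* and 31.5 to 33.3 rpm in *M. moricandioides*, with log2 fold changes of -0.21 in both intermediates (SEs 0.11 and 0.12, edgeR adjusted p = 0.13 and 0.186). CDKD;3, a kinase that activates other CDKs, had 2.50, 3.39, 2.61 and 2.93 rpm in the *M. arvensis* plants, 8.21, 8.27 and 6.28 rpm in *M. suffruticosa* and 5.90, 7.83, 8.19 and 9.22 rpm in *M. moricandioides*. Its *M. arvensis* plants were below all others, with log2 fold changes of -1.57 over *M. moricandioides* (SE 0.21, edgeR adjusted p = 0.000106) and -1.45 over *M. suffruticosa* (SE 0.23, adjusted p = 0.000575), and both calls held without any single library. CYCH;1, the cyclin partner of the CDKD kinases, was lower in *M. arvensis* than in *M. suffruticosa* (log2 fold change -0.73, SE 0.18, edgeR adjusted p = 0.00981), a call lost in 9 of the 11 fits without 1 library. CDKD;2, another of these kinases, was lower in *M. suffruticosa* than in *M. moricandioides* with a log2 fold change of -1.07 (SE 0.20, edgeR adjusted p = 0.00155).

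CDK inhibitors of the KRP family block CDK and cyclin complexes. Of 4 tested members 2 were higher in *M. arvensis* than in *M. moricandioides* (50.0%, beside 18.2% of all tested rows). KRP4 had 11.8, 17.5, 17.3 and 14.3 rpm in the *M. arvensis* plants, 9.70, 10.9 and 7.46 rpm in *M. suffruticosa* and 6.81, 5.63, 8.69 and 8.27 rpm in *M. moricandioides*, a log2 fold change of 0.91 in *M. arvensis* (SE 0.19, edgeR adjusted p = 0.00217). KRP5 was higher by 1.83 (SE 0.50, edgeR adjusted p = 0.00969), at 0.603 to 2.85 rpm in *M. arvensis* plants and 0.202 to 0.489 rpm in *M. moricandioides*, and lost the call in 10 of the 11 fits without 1 library. KRP2, described in other words, was also higher in *M. arvensis*, by 1.46 (SE 0.39, edgeR adjusted p = 0.0081). Upstream of these, the retinoblastoma protein RBR1 and the transcription factor E2FA, which together set entry into S phase, had log2 fold changes equal to -0.23 and -0.05 for *M. arvensis* and -0.02 and 0.58 in *M. suffruticosa* over *M. moricandioides*, none of them past the threshold (edgeR adjusted p from 0.165 to 0.933). DPA, a partner of the E2F factors, was lower in both intermediates, at log2 fold changes of -0.69 in *M. arvensis* (edgeR adjusted p = 0.00192) and by -0.84 in *M. suffruticosa* (adjusted p = 0.00185). BIN4, a subunit of a topoisomerase complex needed for endoreduplication, was lower in *M. arvensis* with a log2 fold change of -0.95 (SE 0.26, edgeR adjusted p = 0.00893).

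P-type cyclins, a family related to the yeast Pho80 cyclin of phosphate signalling, held some of the steadiest differences. CYCP4;1 had 6.03, 3.92, 4.40 and 4.9998 rpm in the *M. arvensis* plants, 12.7, 14.3 and 12.8 rpm in *M. suffruticosa* and 16.9, 18.5, 16.7 and 19.8 rpm in *M. moricandioides*. The 3 species did not overlap, and *M. arvensis* was lower with log2 fold changes of -1.99 than *M. moricandioides* (SE 0.21, edgeR adjusted p = 1.7e-05) and -1.47 than *M. suffruticosa* (SE 0.22, adjusted p = 0.000416). CYCP2;1 was higher in both intermediates, with 20.0, 18.5, 17.0 and 14.1 rpm in the *M. arvensis* plants, 13.5, 13.6 and 8.74 rpm in *M. suffruticosa* and 5.63, 1.06, 3.48 and 4.37 rpm in *M. moricandioides*. The log2 fold changes of CYCP2;1 were 2.14 in *M. arvensis* (SE 0.38, edgeR adjusted p = 0.000692) and 1.62 in *M. suffruticosa* (SE 0.40, adjusted p = 0.009), the second lost in 8 of the 11 fits without 1 library.

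Among the cyclins of transcription, which act with RNA polymerase II rather than in the cell cycle, CYCT1;3 was called in both intermediates. It had 15.3, 14.0, 19.9 and 19.6 rpm in the *M. arvensis* plants, 14.3, 16.8 and 11.2 rpm in *M. suffruticosa* and 9.03, 4.89, 4.71 and 5.45 rpm in *M. moricandioides*. Every plant of both intermediates was above *M. moricandioides*, by 1.39 in *M. arvensis* (SE 0.21, edgeR adjusted p = 0.000227) and by 1.15 in *M. suffruticosa* (SE 0.22, adjusted p = 0.00214), the second lost without *M. suffruticosa* plant 7 (adjusted p = 0.0138). CYCT1;4 averaged 50.4 ± 13.1 rpm in *M. arvensis* plants and 41.4 ± 8.39 rpm in *M. moricandioides* (SD, n = 4 each; log2 fold change 0.14, edgeR adjusted p = 0.467). CDKC;1, a kinase partner of the T-type cyclins, had a log2 fold change of 0.26 in *M. arvensis* and 0.00 in *M. suffruticosa* over *M. moricandioides* (SEs 0.13 and 0.14, edgeR adjusted p = 0.102 and 0.991).

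The genes caught by the wording of their description included the most strongly lowered ones among the called members. TANGLED, which is described as cyclin family and marks the plane of cell division, had 0.391, 0.357, 0.447 and 1.21 rpm in the *M. arvensis* plants, 0.708, 1.202 and 1.37 rpm in *M. suffruticosa* and 10.0, 7.18, 4.56 and 12.4 rpm in *M. moricandioides*. It was lower in both intermediates, at log2 fold changes of -3.97 in *M. arvensis* (SE 0.43, edgeR adjusted p = 2.3e-05) and -3.04 in *M. suffruticosa* (SE 0.45, adjusted p = 0.000384). LEC1, a histone-fold subunit of the transcription factor NF-Y that in Arabidopsis directs embryo maturation, had 0.470, 0.357, 0.522 and 0.517 rpm in the *M. arvensis* plants, 0.354, 0.0707 and 0.728 rpm in *M. suffruticosa* and 5.83, 3.51, 2.97 and 4.71 rpm in *M. moricandioides*. Its log2 fold changes were -3.28 in *M. arvensis* (SE 0.46, edgeR adjusted p = 0.000124) and -3.56 in *M. suffruticosa* (SE 0.53, adjusted p = 0.000395). Calls of TANGLED and LEC1 held whichever library was left out.

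Of the 4 tested relatives of TFIIB, MEE65 was lower in both intermediates and 2 others were higher. The called share was 75.0% in each intermediate, beside 35.0% of all tested rows in *M. arvensis* and 18.9% in *M. suffruticosa* over *M. moricandioides*. MEE65 had 1.096 to 2.41 rpm in *M. arvensis*, 1.41 to 2.64 rpm in *M. suffruticosa* and 6.66 to 12.3 rpm in *M. moricandioides* (log2 fold changes -2.52 and -2.33, SEs 0.29 and 0.32, edgeR adjusted p = 3.6e-05 and 0.000261). AT3G09360 rose by 1.27 in *M. arvensis* and 1.31 in *M. suffruticosa* (SEs 0.18 and 0.19, edgeR adjusted p = 0.000162 and 0.00039), and AT3G10330 by 0.86 and 1.02 (SEs 0.14 each, adjusted p = 0.000298 and 0.000315). AT5G50930, a histone superfamily protein outside the core histones, was higher by 1.77 in *M. arvensis* and 2.82 in *M. suffruticosa* (edgeR adjusted p = 0.00692 and 0.000747), at 0.217 to 0.417 rpm in *M. moricandioides*, and the call in *M. arvensis* was lost in 8 of the 11 fits without 1 library (adjusted p up to 0.0207). MIS12, a kinetochore protein, and EMB1688, a GTPase described as an MCM family member, had log2 fold changes equal to 0.13 and 0.39 for *M. arvensis* over *M. moricandioides* (edgeR adjusted p = 0.746 and 0.0965). CDF3, a cycling DOF factor, averaged 75.6 ± 17.9 rpm in *M. arvensis*, 114 ± 10.9 rpm in *M. suffruticosa* (SD, n = 3) and 132 ± 20.9 rpm in *M. moricandioides* (SD, n = 4 each for the other species), and was lower in *M. arvensis* relative to *M. moricandioides* (log2 fold change -0.93, SE 0.18, edgeR adjusted p = 0.00116).

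**Figure D5:**
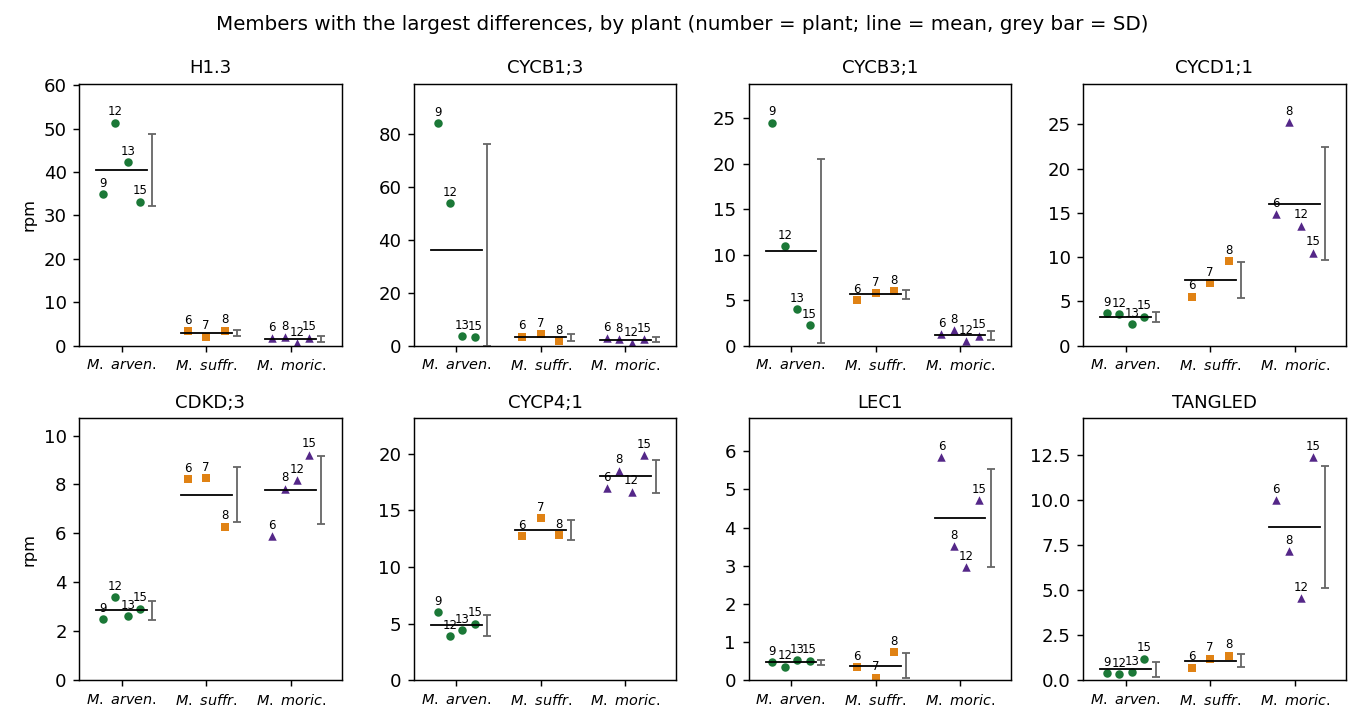
Transcripts of H1.3, CYCB1;3, CYCB3;1, CYCD1;1, CDKD;3, CYCP4;1, LEC1 and TANGLED in rpm (y axes, each from 0) in *M. arvensis*, *M. suffruticosa* and *M. moricandioides* (x axis, left to right), with 1 point per plant labelled by its number, a line at the mean and a grey bar of 1 SD to its right. CYCB1;3 is high in *M. arvensis* plants 9 and 12 (84.4 and 53.9 rpm) and low in plants 13 and 15, whereas TANGLED is at 4.56 to 12.4 rpm in *M. moricandioides* against at most 1.37 rpm in both intermediates.

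Markers of tissues that hold dividing cells, and of flowers and mature mesophyll, were looked at beside these results. Of 9 listed markers of shoot meristem and young leaf, STM and WUS were at 0 in every plant and only ANT was tested, and their summed level was 3.52 to 8.02 rpm in *M. arvensis*, 5.95 to 11.2 rpm in *M. suffruticosa* and 7.50 to 13.0 rpm in *M. moricandioides*. ANT, which prolongs growth of young organs, was lower in *M. arvensis* relative to *M. moricandioides* (log2 fold change -1.25, SE 0.29, edgeR adjusted p = 0.00358). Of 4 markers of the vascular cambium WOX4 was lower in both intermediates (log2 fold changes -1.89 and -1.65, edgeR adjusted p = 0.0015 and 0.0096). This was 25.0% of the 4 in each, beside 16.7% and 8.82% of all tested rows called lower. All 4 had log2 fold changes below 0 in *M. arvensis* over *M. moricandioides* (median -0.54), but 3 of the 4 were above 0 in *M. suffruticosa* (median 0.21). The summed level was 20.0 to 37.5 rpm in *M. arvensis*, 32.5 to 71.3 rpm in *M. suffruticosa* and 35.99 to 59.3 rpm in *M. moricandioides*. Of 7 markers of the stomatal lineage 4 were tested and FAMA alone was called (25.0%, beside 18.2% of all tested rows called higher). FAMA was higher in *M. arvensis* than in *M. moricandioides* (log2 fold change 0.84, edgeR adjusted p = 0.00814). In that comparison 2 of the 4 had log2 fold changes above 0 and 2 below, with a median of -0.09. In *M. suffruticosa* 3 were above 0 and 1 below. The sums were 16.7 to 42.2 rpm in *M. arvensis*, 21.7 to 41.1 rpm in *M. suffruticosa* and 14.1 to 23.1 rpm in *M. moricandioides*. Flower markers summed to at most 0.447 rpm in any plant. Of 6 markers of mature mesophyll LHCB1.3 was at 0, while the other 5 summed to 34532 to 47581 rpm in *M. arvensis*, 38780 to 43459 rpm in *M. suffruticosa* and 51916 to 58374 rpm in *M. moricandioides*. In rpm both intermediates lay below *M. moricandioides* with no overlap. For *M. arvensis* this does not hold under TMM scaling, whose factor for plant 9 was 0.834. Over *M. moricandioides*, 2 of the 5 had log2 fold changes above 0 and 3 below in *M. arvensis*, and 1 above and 4 below in *M. suffruticosa*. The list includes GLDP2, and the study places the GLDP protein only in bundle sheath cells of the intermediates. From leaves of these species the study assembled GLDP sequences like Arabidopsis GLDP1 only. Which gene gave the reads on the GLDP2 row is therefore uncertain. Of the 5 mesophyll markers with reads, the small Rubisco subunit gene RBCS1A and the carbonic anhydrase gene CA1 were lower in *M. arvensis* relative to *M. moricandioides* (log2 fold changes -1.19 and -1.52, SEs 0.26 and 0.29, edgeR adjusted p = 0.00264 and 0.00113). They were 40.0% of the 5, beside 16.7% of all tested rows called lower. The part of these tissues in the results for histones, MCM genes and cyclins was not tested.

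Within *M. moricandioides* the plants differed in more than 1 way. Plant 8 was highest for 6 of 7 tested D-type cyclins, as it was for MCM2 to MCM7, against 34.0% of all tested rows. Core histones followed other plants, with plant 15 highest for 12 and plant 12 for 10 of the 26 tested genes, and plant 8 for 3. These were 46.2%, 38.5% and 11.5%, beside 19.6%, 19.4% and 34.0% of all tested rows. The H2B genes HTB1 and HTB9 had their highest *M. moricandioides* values in plant 12 (134 and 141 rpm), where MCM5 had its lowest (2.10 rpm). Within *M. arvensis* plant 9 was lowest for 14 of the 26 core histones (53.8%, beside 63.6% of all tested rows) and highest for 7 of 14 tested A- and B-type cyclins and B-type CDKs, where its share over all rows was 12.7%.

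Of the 36 genes with 0 reads in every plant, 13 were core histones, among them HTR5 (H3.3), HTR1 and HTR9 (H3.1), HTA1 and HTA13 (H2A) and HTA11 (H2A.Z). Others were 4 A-type cyclins, 4 B-type cyclins, 2 D-type cyclins and 2 B-type CDKs. A count of 0 over the 143599679 counted reads allows up to 3 reads, or 0.0209 rpm, of a read being assigned to that row, for counting error only. Since many of these rows have a close copy with reads, such as CDKB1;1 beside CDKB1;2, and the reads were matched to a reduced set of sequences, a count of 0 cannot be told apart from reads counted on the copy.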

How the data were processed

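Leaf RNA of 11 plants (4 *M. arvensis*, 3 *M. suffruticosa*, 4 *M. moricandioides*) was sequenced in single-end reads of 100 bp. Per the study's methods the authors mapped reads by BLAT in protein space to a reduced set of Arabidopsis TAIR10 coding sequences and took the best hit per read. The deposited read counts per gene model were used for all tests, and the deposited rpm values (reads scaled by each library's total of counted reads, computed by the authors) for levels. The submitters' notes name CASAVA, TAIR10 and edgeR, with versions not given in the sources used here. Columns of the authors' own comparisons, with fold changes and p-values, were not used.

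Counts were fitted in edgeR 4.0.16 (R 4.3.3, limma 3.58.1) by quasi-likelihood F tests with TMM scaling and filterByExpr (minimum count 10), with all 11 libraries in 1 fit of species, 3 contrasts, and Benjamini-Hochberg adjustment over 15570 rows at a threshold of 0.01. The standard error is the absolute log2 fold change divided by the square root of F. Plants are separate individuals, and intervals and floors cover counting error only. Depth was 10987959 to 14865167 reads per plant, and the biological coefficient of variation was 0.259. Alternatives were RLE factors, library totals, other filters, DESeq2 1.42.0, pairwise fits, a threshold of 0.05, a block on plant number, close plants summed and each library left out. The fit was tested on simulated data. Tables and figures were made with pandas 2.3.3 and matplotlib 3.10.9.

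The members and gene lists were chosen with earlier results of these data known. Named by rule were all MCM genes, the member with most reads of each class, the 6 largest called changes in each direction and comparison at 1 rpm or more, and all tested A-, B- and D-type cyclins and B-type CDKs, 68 genes in all. Of other pathway genes, the largest called change per list and direction and 6 preset genes (PCNA1, PCNA2, RBR1, E2FA, TSO2 and CDKA;1) were named. Genes outside these rules are marked as chosen after their values were seen. The marker genes named singly, among them every called one, were also chosen after their values were seen. No sequences are shown because no reference was used here.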

Additional observations from a re-analysis of the deposited data

Results flagged for a closer look

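Of 118 sets of 4 plants of 1 species and 1 gene with a mean of at least 1 rpm, 7 held a plant set apart from the other 3 (gap over range above Dixon's critical value), where chance gives about 1 in 20. In *M. arvensis* these were CYCA1;1 in plant 13 (1.19 rpm, the others 2.05 to 2.11 rpm), CYCD5;1 in plant 9 (4.23 rpm, the others 2.91 to 3.103 rpm), HTA9 in plant 15 (44.7 rpm, the others 39.3 to 39.7 rpm) and MCM5 in plant 12 (2.23 rpm, the others 1.94 to 1.98 rpm). In *M. moricandioides* they were CDKB2;2 in plant 8 (3.75 rpm, the others 2.08 to 2.35 rpm), CYCD3;1 in plant 8 (13.1 rpm, the others 4.17 to 5.22 rpm) and MCM10 in plant 6 (16.8 rpm, the others 0.217 to 1.06 rpm).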

How the results depend on the processing

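The numbers of members called higher and lower were 19 and 12 (*M. arvensis* over *M. moricandioides*), 8 and 4 (*M. suffruticosa* over *M. moricandioides*) and 6 and 4 (*M. arvensis* over *M. suffruticosa*). RLE factors, library totals, both other filters and fits of only 2 species moved each count by no more than 1.5 times. Library totals shifted the median of all rows to 0.16 in *M. arvensis* over *M. moricandioides*, against 0.02 with TMM, and gave 3127 higher and 2011 lower rows in place of 2840 and 2604. DESeq2 gave 13 and 9 members in *M. suffruticosa* over *M. moricandioides* and 10 and 9 in *M. arvensis* over *M. suffruticosa*. A threshold of 0.05 gave 26 and 22, 14 and 11, and 11 and 11 in the 3 comparisons. With close plants summed, 5 were higher in *M. suffruticosa* than in *M. moricandioides*, and *M. arvensis* against *M. suffruticosa* had 1 higher and 1 lower. Leaving out 1 library gave 12 to 19 higher and 9 to 15 lower, 5 to 9 and 3 to 7, and 1 to 7 and 3 to 7. Without *M. moricandioides* plant 6 the first count was 12, without *M. suffruticosa* plant 7 the second comparison had 5 higher, without *M. moricandioides* plant 12 it had 7 lower, and without *M. suffruticosa* plant 6 or 7 the third had 2 or 1 higher, and without *M. arvensis* plant 9 it had 7 lower. The cause was not tested. No named call reversed, and of 48 named calls 33 to 43 were kept without 1 library, 45 with RLE factors, 44 with library totals, 46 without a filter, 48 with DESeq2 and 31 with close plants summed.

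Plant numbers are shared between species but do not pair plants, since deviations of plants with the same number had correlations of -0.02 to 0.03. A replicate block on plant number gave 1 higher and 3 lower, 0 and 0, and 0 and 0 members, with 4 of 48 named calls kept; this fit has few degrees of freedom left. At 3 reads the floor was 0.202 to 0.273 rpm per library, so differences among genes near it were not detectable at this depth.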

Other observations

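TES, TMM and SPCH, which belong to lists summarised above, were chosen after their values were seen because single plants stood apart. TES, a kinesin of cell plate formation in pollen, had 1.57, 0.713, 21.5 and 21.5 rpm in *M. arvensis* plants, 11.4, 12.1 and 13.3 rpm in *M. suffruticosa* and 19.4, 11.01, 14.1 and 16.8 rpm in *M. moricandioides*. It was low in *M. arvensis* plants 9 and 12, the plants with high CYCB1;3, and the difference between species did not pass the test (log2 fold change of *M. arvensis* over *M. moricandioides* -0.68, standard error 0.68, adjusted p = 0.43 from edgeR). In *M. suffruticosa* the stomatal lineage genes TMM and SPCH stood apart in plant 8. TMM had 2.74, 2.14, 0.745 and 0.0862 rpm in *M. arvensis* plants, 3.19, 4.38 and 17.7 rpm in *M. suffruticosa* and 1.04, 1.96, 0.797 and 4.98 rpm in *M. moricandioides*. SPCH, which starts that lineage, had 1.02, 1.52, 0.671 and 1.03 rpm in *M. arvensis* plants, 0.212, 0.212 and 3.37 rpm in *M. suffruticosa* and 1.81, 2.04, 1.304 and 2.29 rpm in *M. moricandioides*.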
